A study of Homo sapiens with 4 samples.

Results

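The immunoglobulin genes of KMS11 cells, the genes for antibody heavy and light chains and for the J chain, were examined for which chains this plasma cell line transcribes and for their levels after knockdown of NSD2. Members were the immunoglobulin gene symbols of the deposited gene table (heavy chain V, D and constant genes, kappa and lambda V and constant genes, and JCHAIN) with at least 10 fragments summed over the 4 libraries. The rule kept 51 genes of 331 matching symbols, out of 62069 genes counted. It used the summed fragments, so the order of the genes by fragments is a description. The difference between knockdown and control was not used to pick members. A sparse member could still reach the minimum through 1 group alone, as IGHV5-78 did through the control libraries. Just inside the minimum lay IGKV1D-27 and IGLV4-60, each with 11 fragments, and just outside it IGKV3D-20 with 9 and IGHG1 and IGLV11-55 with 8 each.

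KMS11 is an established multiple myeloma line with the t(4;14) translocation, which joins the heavy chain locus to a region holding FGFR3 and NSD2, a histone methyltransferase. RNA was sequenced from 2 libraries of KMS11 cells given an shRNA against NSD2 and 2 libraries of KMS11 cells given a control shRNA whose target the labels do not name. All 4 were made from cells infected with lentivirus in 10 µg/mL polybrene, moved to fresh medium after 24 h and collected 72 h later, at 96 h in all. Both groups are therefore infected cells of a single line, and nothing in the labels says whether replicate libraries were grown and infected separately. The p-values measure the spread between these libraries, which may be technical.

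An antibody is built from paired heavy and light chains. In each B cell a V and a J segment, with a D segment between them in the heavy chain, are joined by recombination, and RNA splicing attaches the joined variable part to a constant gene, which sets the class of the heavy chain. A light chain is either kappa or lambda, and plasma cells, which secrete antibody, normally transcribe the chains of a single recombined pair at very high levels. The J chain is a separate small protein that links the subunits of polymeric IgA and IgM.

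The knockdown and control libraries held 48334736 and 55059566 fragments assigned to genes in the NSD2 knockdown and 50417758 and 46728940 in the control. NSD2 itself had 919 and 1155 CPM (fragments of a gene scaled to 1e+06 fragments assigned to genes) in the libraries labelled NSD2 knockdown, against 1120 and 1471 CPM in the control libraries. These groups overlapped, and the log2 fold change of −0.32 (95% interval −0.66 to 0.02) had an adjusted p of 0.244 by edgeR's quasi-likelihood test, the test behind every adjusted p given without another name. Leaving out a library moved it widely: it was −0.16 (adjusted p 0.632) without knockdown replicate 1, −0.50 (0.0268) without knockdown replicate 2, −0.50 (0.0196) without control replicate 1 and −0.12 (0.731) without control replicate 2. Of the 8 alternatives with all 4 libraries, 2 passed at a log2 fold change of −0.32, with an adjusted p of 0.0173 when every gene was tested and 0.0197 with the replicate block. Directions here are those of the libraries as labelled. Plasma cell markers were present, with the syndecan gene SDC1 at 677 and 666 CPM in the knockdown and 652 and 633 CPM in the control, but CD38 was low, at 0.289 and 0.0368 CPM against 1.54 and 0.699 CPM. The B cell markers MS4A1 and CD22 lay at or near 0 in every library. Other B cell markers did not: the list of 8 summed to 80.9 and 64.1 CPM in the knockdown and 113 and 109 CPM in the control.

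Of the 331 symbols, 225 had no fragment in any library and 55 had between 1 and 9. Members were 1 J chain gene, 17 of 88 kappa V genes, the kappa constant gene, 14 of 74 lambda V genes, 1 of 8 lambda constant genes, 9 of 12 heavy constant genes, 5 of 27 heavy D segments and 3 of 120 heavy V genes. JCHAIN and the kappa V gene IGKV3-15 together held 98.0% of the 1995224 immunoglobulin fragments. JCHAIN was rank 6 and IGKV3-15 rank 9 among all genes by summed fragments, and the median member had 44 fragments over the 4 libraries.

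**Figure D1:**
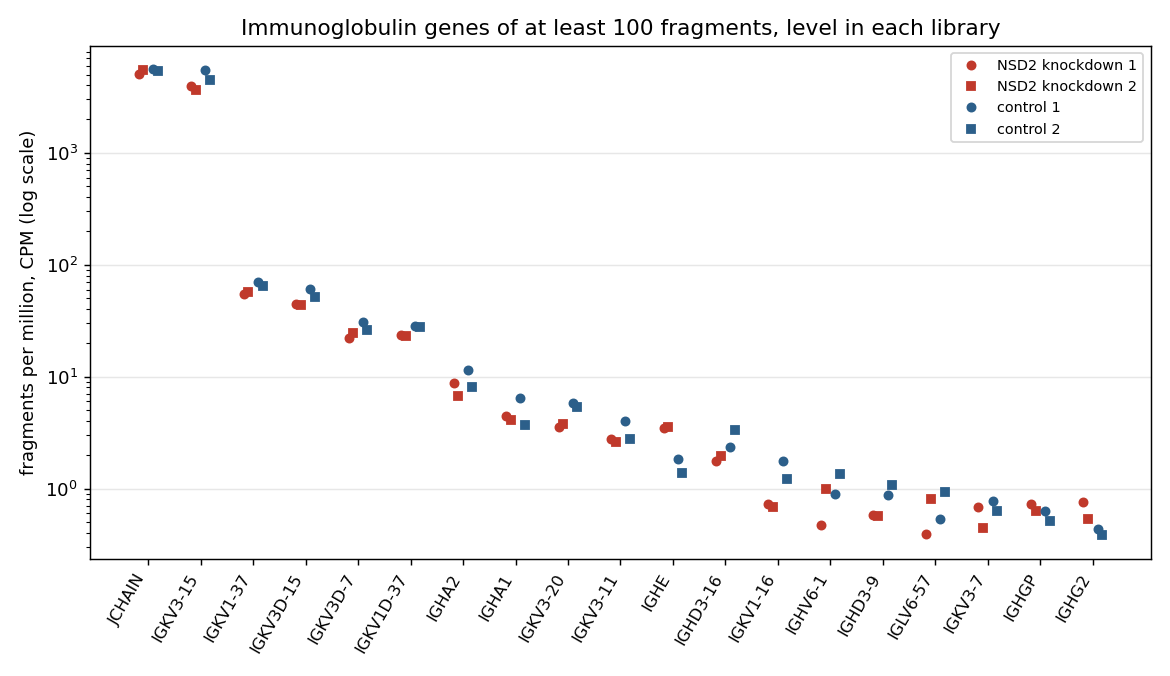
Level of each immunoglobulin gene with at least 100 fragments over the 4 libraries, in CPM on a log axis, with 1 point per library (red, NSD2 knockdown; blue, control; circles, replicate 1; squares, replicate 2). JCHAIN and IGKV3-15 stood between 3642 and 5572 CPM in every library, and the next gene, IGKV1-37, between 54.8 and 69.6 CPM.

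The sequences of 5 segments named in the results are shown: the kappa V gene IGKV1-37, which has an identical distal copy, IGKV1-16, the V gene that passed the test, the J segment that held most kappa J fragments, and the heavy D segments with most fragments. They are germline reference sequences of GENCODE 29 transcripts, which matched 51 of 51 members, and not the line's own recombined genes. Of each V gene the last 300 coding bases are given, from base 52 to 351, and the J and D segments are whole.
IGKV1-37: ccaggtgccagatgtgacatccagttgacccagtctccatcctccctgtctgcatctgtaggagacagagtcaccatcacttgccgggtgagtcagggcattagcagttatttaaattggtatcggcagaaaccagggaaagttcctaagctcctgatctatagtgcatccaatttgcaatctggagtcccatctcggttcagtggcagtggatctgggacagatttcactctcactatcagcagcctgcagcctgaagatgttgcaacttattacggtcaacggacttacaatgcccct
IGKV1-16: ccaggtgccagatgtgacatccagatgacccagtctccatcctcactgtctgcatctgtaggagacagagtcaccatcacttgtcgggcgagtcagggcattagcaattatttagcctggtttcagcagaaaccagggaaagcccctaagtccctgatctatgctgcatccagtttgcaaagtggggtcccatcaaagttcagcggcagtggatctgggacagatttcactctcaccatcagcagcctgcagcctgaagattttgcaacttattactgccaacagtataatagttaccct
IGKJ5: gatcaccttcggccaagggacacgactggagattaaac
IGHD3-16: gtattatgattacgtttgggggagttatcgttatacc
IGHD3-9: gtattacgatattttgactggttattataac

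IGKV3D-15 is the copy of IGKV3-15 in the distal, inverted duplicate of the kappa locus. Over 345 aligned bases the pair was 99.1% identical, with a longest shared run of 217 bases. IGKV1-37 was 73.3% identical to IGKV3-15, and its own distal copy IGKV1D-37 was identical to it over all 351 aligned bases. IGKV3D-7 was 95.7% identical to IGKV3-15, and IGKV3-20 and IGKV3-11 were each 94.5% identical to it. A fragment that aligns equally well to more than 1 place is not counted under the counting command the file headers record, so levels of these copies, and of the near-identical IGHA and IGHG genes, are uncertain.

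Of the 51 members, 27 passed the filter on low counts and were tested. IGHE was the 1 member that rose past the threshold (adjusted p below 0.05) and IGKV1-16 the 1 that fell. Among all 17172 genes tested, 1.74% rose and 4.19% fell past the same threshold, 5.93% in all. Without control replicate 2, 6 members fell, and without knockdown replicate 1 or control replicate 1, 2 fell; without knockdown replicate 1, 2 rose. The log2 fold change was below 0 in 22 of the 27 tested members, with a median of −0.34 (range −1.10 to 1.15), against a median of −0.0016 over all tested genes. Without control replicate 1 the median of the members was −0.20, and the number below 0 was between 18, without knockdown replicate 1, and 23 in the fits on the 27 members. The knockdown libraries both lay below both control libraries in 13 of the 27 and above them in 2; over all tested genes these shares were 26.2% and 27%, or 53.2% in either direction. At an unadjusted p under 0.05, 9 members were lower and 1 was higher, 10 of the 27 in all; over all tested genes these shares were 13.1%, 9.46% and 22.5%. The other 24 members had too few fragments for the fit as reported, so its counts describe the 27 and not all 51. The counts of members past the threshold with a library left out cover every member tested in that fit. They can therefore include some of the 24. In RNA from whole cultures, fewer cells transcribing a gene and less RNA per cell cannot be told apart.

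**Figure D2:**
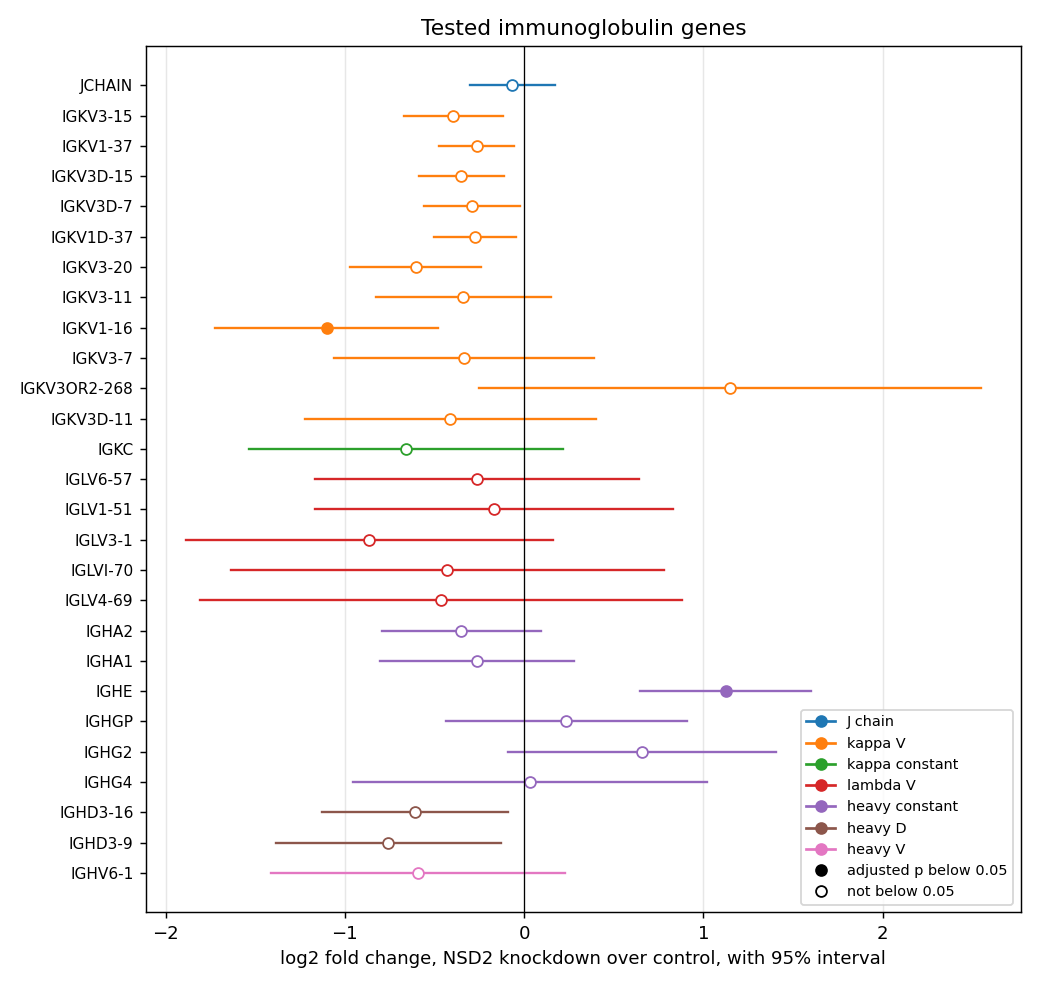
Log2 fold change, NSD2 knockdown over control, of the 27 tested immunoglobulin genes with its 95% interval, grouped and coloured by class and ordered by summed fragments within a class. Filled points mark IGHE (1.12) and IGKV1-16 (−1.10), the genes with an adjusted p below 0.05; open points mark the others.

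JCHAIN (ENSG00000132465, chr4:71521258-71547534, minus strand, GRCh37) had 243295 and 297978 fragments in the knockdown libraries and 281814 and 255937 in the control libraries. That is 5029 and 5487 CPM in the knockdown, against 5572 and 5424 CPM in the control, so the groups overlapped. Its log2 fold change was −0.06 (95% interval −0.30 to 0.17), with an adjusted p of 0.764. The interval leaves room for differences of that size in either direction. Of its 1680 exonic bases, 87 are shared with ENAM on the other strand, and fragments were counted without regard to strand.

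IGKV3-15 (ENSG00000244437, chr2:89384673-89385283, minus strand, GRCh37) had 190076 and 197794 fragments in the knockdown libraries and 277859 and 210615 in the control libraries. Its levels were 3929 and 3642 CPM in the knockdown, against 5494 and 4464 CPM in the control. Both knockdown libraries lay below both control libraries, and control replicate 1 was the highest of the 4. The means were 3786 ± 202 CPM in the knockdown and 4979 ± 728 CPM in the control (SD, n = 2 each), a change of −23.96% in the knockdown. The log2 fold change of −0.40 (SE 0.12, 95% interval −0.67 to −0.12) did not pass the threshold, with an adjusted p of 0.0961. DESeq2 gave an adjusted p of 0.0252, edgeR without the filter on low counts 0.000366, and edgeR with the replicate block 0.0101. Without control replicate 1 the log2 fold change was −0.23 (adjusted p 0.389), whereas without knockdown replicate 1 or control replicate 2 the adjusted p was 0.0322 or 0.0349.

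Per kilobase of exon IGKV3-15 was the higher of the pair of leading genes, with 8889 and 8241 CPM per kb in the knockdown and 12429 and 10099 CPM per kb in the control. JCHAIN had 2993 and 3266 CPM per kb in the knockdown and 3317 and 3229 CPM per kb in the control. Duplicates had been removed before counting, per the names of the alignments in the file headers. Within the 442 exonic bases of IGKV3-15 only 97903 pairs of start and end exist, fewer than its fragments in any library. How far duplicate removal lowered its counts, or narrowed the difference between groups, was not tested.

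IGKV3-15 held almost the whole of the kappa V signal. Its share of kappa V fragments was 96.2% and 95.9% in the knockdown and 96.4% and 96.1% in the control (exact 95% binomial intervals for counting error alone, 96.2 to 96.3%, 95.8 to 96.0%, 96.4 to 96.5% and 96.0 to 96.2%). The shares of the groups overlapped, and the mean difference was −0.21 percentage points (exact permutation test, two-sided, p = 0.667). With 2 libraries against 2, the smallest p this test can give is 0.333. The kappa V genes summed to 4082 and 3799 CPM in the knockdown and 5697 and 4644 CPM in the control, a log2 ratio of −0.39 (exact permutation p = 0.333, n = 2 each). Without IGKV3-15 the sum was 153 and 156 CPM in the knockdown and 203 and 180 CPM in the control, a log2 ratio of −0.31 with the same p.

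In 9 of the 11 tested kappa V genes both knockdown libraries lay below both control libraries, against 26.2% of all tested genes. IGKV3-7 and IGKV3OR2-268 overlapped. Several of the 11 are near copies of each other, so they are not separate observations. IGKV1-37 had 54.8 and 56.4 CPM in the knockdown, against 69.6 and 63.9 CPM in the control (log2 fold change −0.26, adjusted p 0.136). IGKV3D-15 had 44.4 and 43.3 CPM in the knockdown, against 60.6 and 51.2 CPM in the control (−0.35, adjusted p 0.0869). IGKV3D-7 had 22.0 and 24.4 CPM in the knockdown, against 30.7 and 25.9 CPM in the control (−0.29, adjusted p 0.192). None of these passed the threshold in the fit as reported. With the replicate block the adjusted p was 0.0325 for IGKV1-37, 0.00609 for IGKV3D-15 and 0.0468 for IGKV3D-7. Without control replicate 1 their log2 fold changes were −0.20, −0.22 and −0.16 in the same order. IGKV3D-15 also passed when every gene was tested (0.0333). IGKV1D-37 had 23.3 and 22.9 CPM in the knockdown, against 28.4 and 27.5 CPM in the control (−0.27, adjusted p 0.150, and 0.0376 with the replicate block). IGKV3-20 had 3.58 and 3.78 CPM in the knockdown, against 5.81 and 5.36 CPM in the control (−0.60, adjusted p 0.0623). Its adjusted p was 0.0234 when every gene was tested and 0.00593 with the replicate block. The 7 tested genes of the IGKV3 and IGKV3D group all had a log2 fold change below 0, between −0.60 and −0.29, and the 5 to 7 of them tested under each alternative all stayed below 0.

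**Figure D3:**
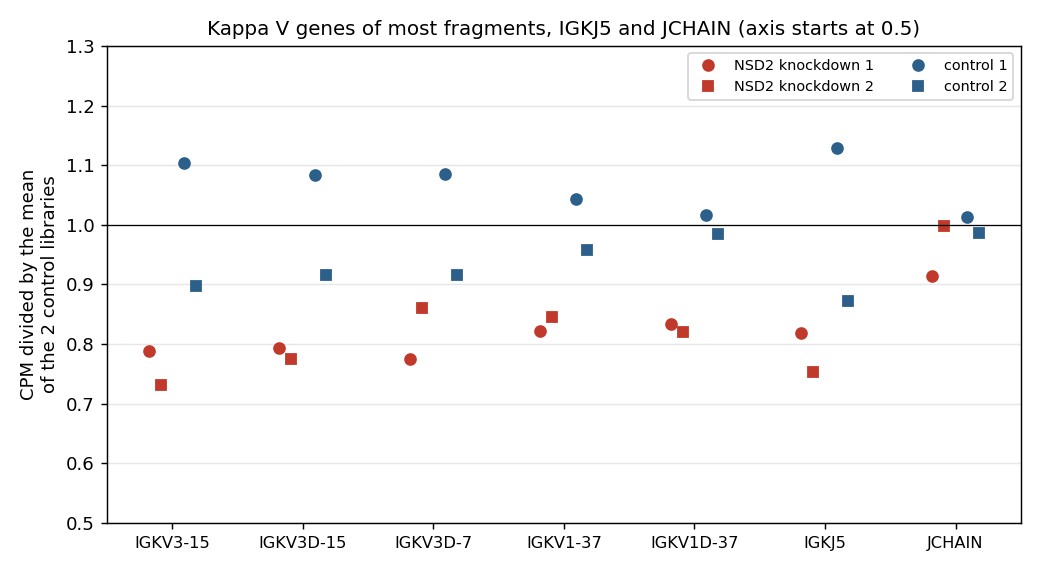
Level of 5 kappa V genes, the joining segment IGKJ5 and JCHAIN in each library, divided by the mean of the 2 control libraries, on an axis that starts at 0.5 (red, NSD2 knockdown; blue, control). IGKV3-15 stood at 0.789 and 0.732 in the knockdown and 1.10 and 0.897 in the control, and JCHAIN at 0.915 and 0.998 in the knockdown and 1.01 and 0.987 in the control.

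The minor kappa V genes were also set against IGKV3-15. For every 100 fragments of IGKV3-15, IGKV3D-15 had 1.13 and 1.19 in the knockdown and 1.10 and 1.15 in the control. IGKV1-37 had 1.396 and 1.55 per 100 in the knockdown and 1.27 and 1.43 in the control. In both genes the groups overlapped on this ratio. IGKV3-20 had 0.0910 and 0.104 per 100 in the knockdown and 0.106 and 0.120 in the control, without overlap. Fragments of IGKV3-15 placed on its copies, and transcription of the copies themselves, cannot be told apart from these counts.

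IGKV1-16 (ENSG00000240864, chr2:89399352-89399854, GRCh37) was the kappa V gene that fell. It had 35 and 37 fragments in the knockdown libraries and 90 and 58 in the control libraries, or 0.723 and 0.681 CPM against 1.78 and 1.23 CPM. Its log2 fold change was −1.10 (SE 0.28, 95% interval −1.72 to −0.48), with an adjusted p of 0.0487. The call lay at the threshold: DESeq2 gave an adjusted p of 0.123, limma-voom 0.0628, scaling by library size 0.0560 and a filter at 1 CPM 0.0548. It was also lost without knockdown replicate 1 (0.0504), knockdown replicate 2 (0.110) or control replicate 1 (0.152).

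IGKV3OR2-268, an orphan V gene outside the kappa locus, was named here after its values were seen. It had the highest log2 fold change of the tested members, 1.15, with an adjusted p of 0.317. When every gene was tested it passed, at 1.14 with an adjusted p of 0.0324. All 350 of its bases aligned with IGKV3D-7 were identical, with a longest shared run of 328, so its level is uncertain. It had 10 and 52 fragments in the knockdown libraries and 10 and 16 in the control libraries. Knockdown replicate 2 alone was high, and the groups overlapped. Without that library the log2 fold change was −0.37, and without knockdown replicate 1 it was 1.84.

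Among the kappa J segments, which are not members by the symbol rule, fragments fell on IGKJ5. IGKJ1 and IGKJ2 share all of their 38 exonic bases each with another annotated gene, so the recorded counting leaves them at 0 and the share covers the other kappa J segments. IGKJ5 held 96.5% and 98.0% of these kappa J fragments in the knockdown and 97.7% and 96.6% in the control. It had 816 and 842 fragments in the knockdown libraries and 1175 and 847 in the control libraries. The groups did not overlap, but control replicate 2 exceeded the higher knockdown library by only 5 fragments before scaling. The log2 fold change of −0.35 had an adjusted p of 0.182, and 0.0206 with the replicate block. It was −0.53 without control replicate 2 and −0.15 without control replicate 1.

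IGKC, the only kappa constant gene, was nearly empty in the counts beside its V and J segments. It had 17 and 14 fragments in the knockdown libraries and 30 and 17 in the control libraries. Its log2 fold change was −0.66 (95% interval −1.54 to 0.22), with an adjusted p of 0.362. In the annotation used for counting, 488 of its 523 exonic bases, chr2:89156709-89157196, lie in an exon of another gene, ENSG00000231486. A fragment that falls on exons of more than 1 gene is not assigned under the recorded counting command, so the count of IGKC is not a measure of kappa constant RNA in these files.

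Lambda genes were near the detection limit. Kappa genes held 99.96% and 99.92% of light chain V fragments in the knockdown and 99.96% and 99.93% in the control. The 74 lambda V genes summed to 1.74 and 2.89 CPM in the knockdown and 2.33 and 3.41 CPM in the control, overlapping between groups (exact permutation p = 0.667, n = 2 each). IGLV6-57 had 19 and 44 fragments in the knockdown libraries and 27 and 44 in the control libraries (log2 fold change −0.26, adjusted p 0.750). IGLV1-51 had 12 and 21 in the knockdown and 12 and 23 in the control (−0.17, adjusted p 0.865). Replicate 2 exceeded replicate 1 in both groups for both genes. IGLV3-1 had 9 and 10 fragments in the knockdown and 12 and 21 in the control (−0.86, adjusted p 0.3004). All 5 tested lambda V genes had a log2 fold change below 0 and none passed the threshold, but 4 of them, IGLV6-57, IGLV1-51, IGLVI-70 and IGLV4-69, turned above 0 when some single library was left out, by up to 0.18, 0.42, 0.14 and 0.16. IGLC2, the only lambda constant member, had 7 and 15 fragments in the knockdown and 6 and 8 in the control and was not tested.

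IGLL5, a gene that shares its last part with the lambda constant gene IGLC1, held more fragments than all lambda members together. It had 651 and 965 fragments in the knockdown libraries and 1018 and 1327 in the control libraries. The groups did not overlap, and a log2 fold change of −0.63 (95% interval −1.02 to −0.23) came with an adjusted p of 0.0729. IGLL5 passed with DESeq2 (0.0178), when every gene was tested (0.000122) and with the replicate block (5.03e-05). Its log2 fold change was −0.37 without control replicate 2 and −0.85 without knockdown replicate 2. Of its 1053 exonic bases, 573 are shared with IGLC1 and the joining segment IGLJ1.

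Few fragments were counted on heavy chain genes. The 12 heavy constant genes summed to 18.9 and 15.9 CPM in the knockdown and 21.5 and 14.6 CPM in the control, a log2 ratio of −0.05 with overlapping groups (exact permutation p = 1, n = 2 each). Per kilobase, IGHA2, the heavy constant gene with most fragments, had 8.18 and 6.21 CPM per kb in the knockdown and 10.8 and 7.54 CPM per kb in the control, far under the values of IGKV3-15 per kilobase. Fragments shared between near-identical IGHA or IGHG genes are missing from these counts, so they are not a measure of total heavy chain RNA.

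IGHE, which encodes the constant part of the IgE heavy chain, rose. IGHE (ENSG00000211891, chr14:106064224-106068065, GRCh37) had 169 and 192 fragments in the knockdown libraries and 93 and 65 in the control libraries. Its level was 3.49 and 3.54 CPM in the knockdown, against 1.84 and 1.38 CPM in the control, with no overlap. The means were 3.51 ± 0.03 CPM in the knockdown and 1.61 ± 0.33 CPM in the control (SD, n = 2 each), 2.19 times as high in the knockdown. A log2 fold change of 1.12 was fitted (SE 0.21, 95% interval 0.65 to 1.60), with an adjusted p of 0.0147. It passed the threshold under all 12 alternatives, with a highest adjusted p of 0.0221, and the authors' deposited table gives a log2 fold change of 1.12 with an adjusted p of 0.0532. Of its 1543 exonic bases, 622 are shared with 2 other annotated genes, ENSG00000227468 and ENSG00000254140.

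The IgA genes had more fragments than IGHE and did not pass. IGHA2 had 424 and 361 fragments in the knockdown libraries and 583 and 381 in the control libraries, or 8.76 and 6.65 CPM against 11.5 and 8.07 CPM. These groups overlapped (log2 fold change −0.35, adjusted p 0.337), although the adjusted p was 0.0360 without control replicate 2, at a log2 fold change of −0.59. Without knockdown replicate 2 the log2 fold change was −0.17, and without control replicate 1 it was −0.07. IGHA1 had 215 and 223 fragments in the knockdown and 328 and 176 in the control (−0.26, adjusted p 0.574), and the control pair spanned the knockdown pair. Without control replicate 1 its log2 fold change was 0.20. The share of heavy constant fragments on IGHA2 was 46.4% and 41.8% in the knockdown and 53.6% and 55.3% in the control. The mean difference was −10.3 percentage points, without overlap (exact permutation p = 0.333, n = 2 each). That total includes IGHE, with 169 and 192 fragments in the knockdown and 93 and 65 in the control. The share is therefore not a measure of IGHA2 alone.

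Among the IgG genes, IGHG2 had 37 and 29 fragments in the knockdown libraries and 22 and 18 in the control libraries (log2 fold change 0.66, adjusted p 0.282), with both knockdown libraries above both control libraries. The pseudogene IGHGP had 35 and 34 in the knockdown and 32 and 24 in the control (0.23, adjusted p 0.697). IGHG4 had 20 and 11 in the knockdown and 14 and 15 in the control (0.03, adjusted p 0.977). The remaining constant members had too few fragments for the fit as reported: IGHM had 1 and 2 in the knockdown and 7 and 5 in the control. IGHG3 had 4 and 6 in the knockdown and 3 and 1 in the control, and IGHEP1 had 6 and 3 against 2 and 2.

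Upstream of IGHM lie the D segments and the V genes. IGHD3-16 (chr14:106361492-106361528, GRCh37), a segment of 37 bases, had 85 and 107 fragments in the knockdown libraries and 119 and 158 in the control libraries. Its level was 1.76 and 1.97 CPM in the knockdown, against 2.35 and 3.35 CPM in the control, with no overlap. The log2 fold change of −0.61 (95% interval −1.13 to −0.09) had an adjusted p of 0.159. It was −0.84 without control replicate 1 and −0.34 without control replicate 2. Without knockdown replicate 1 it was −0.52, and without knockdown replicate 2 it was −0.70. IGHD3-9 had 28 and 31 fragments in the knockdown and 44 and 51 in the control (−0.76, adjusted p 0.149). IGHD2-2 had 6 and 5 in the knockdown and 9 and 24 in the control and was not tested. The 27 D segments summed to 2.69 and 2.93 CPM in the knockdown and 3.58 and 5.32 CPM in the control, a log2 ratio of −0.66 (exact permutation p = 0.333, n = 2 each).

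Very few heavy V fragments were seen. IGHV6-1, the V gene nearest to the D segments, had 23 and 54 fragments in the knockdown libraries and 45 and 64 in the control libraries. The groups overlapped (log2 fold change −0.59, adjusted p 0.381). It held 76.7% and 76.1% of heavy V fragments in the knockdown and 65.2% and 72.7% in the control. IGHV5-78 had 0 and 0 fragments in the knockdown libraries and 13 and 9 in the control libraries. With the knockdown pair set at a floor of 3 fragments, the control level was 7.70 times that floor. This value makes no allowance for counting error in the control. IGHV5-78 reached the minimum of 10 fragments through the control libraries alone, so the difference is not support for a fall. It was too sparse to test in the fit as reported. MIR5195, a microRNA gene just beside it at chr14:107259100-107259214, also had 0 and 0 fragments in the knockdown, against 8 and 12 in the control. IGHV4-31 had 1 and 7 in the knockdown and 2 and 3 in the control.

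**Figure D4:**
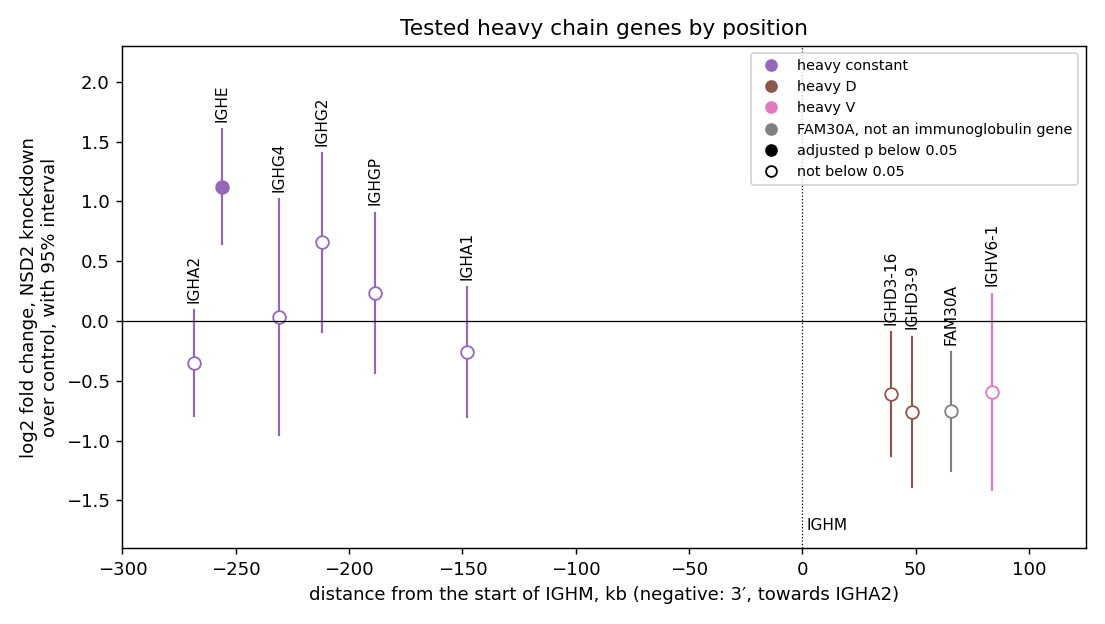
Log2 fold change, NSD2 knockdown over control, with its 95% interval, of the 9 tested heavy chain genes and the long RNA gene FAM30A, by distance in kb from the start of IGHM (negative towards IGHA2, positive towards the V genes). Of 6 constant genes 4 lay above 0, with a median of 0.13, and the 3 D and V genes lay between −0.76 and −0.59.

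By position, the tested heavy chain genes on the 3′ side of IGHM had a median log2 fold change of 0.13, with 4 of 6 above 0. The 3 on the D and V side were all below 0, with a median of −0.61. FAM30A, a long RNA gene in the D and V interval, had 1080 and 1729 fragments in the knockdown libraries and 1747 and 2693 in the control libraries. The groups did not overlap, replicate 2 exceeded replicate 1 in both, and the log2 fold change of −0.76 had an adjusted p of 0.0814. FAM30A passed when every gene was tested (adjusted p 2.35e-08) and with the replicate block (1.9e-06). Its log2 fold change was −0.36 without control replicate 2 and −1.07 without control replicate 1. In the fit as reported, only IGHE among these genes passed the threshold. With the replicate block IGHD3-16 passed as well (adjusted p 0.0255). The difference between the sides was not tested.

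Genes that act on immunoglobulin transcription, assembly and secretion were examined in 8 lists. Of 140 distinct tested genes 1 rose and 3 fell, with a median log2 fold change of −0.02; over all tested genes 1.74% rose and 4.19% fell. The number that rose was 2 without knockdown replicate 1, 0 without knockdown replicate 2, 6 without control replicate 1 and 4 without control replicate 2, and the number that fell was 6, 4, 13 and 4 in the same order. Among 26 tested transcription factors of immunoglobulin genes, none rose and 1 fell. That gene was POU2F2, the octamer-binding factor OCT2, with 14.6 and 11.1 CPM in the knockdown, against 24.6 and 29.04 CPM in the control (log2 fold change −1.06, adjusted p 0.00409). Its coactivator gene POU2AF1 had 299 and 329 CPM in the knockdown and 334 and 349 CPM in the control (−0.12, adjusted p 0.506). IRF4, a factor that plasma cells need, had 469 and 525 CPM in the knockdown and 597 and 697 CPM in the control, without overlap (−0.38, adjusted p 0.0810). IKZF3 had 132 and 126 CPM in the knockdown and 139 and 261 CPM in the control (−0.63, adjusted p 0.135), with control replicate 2 alone high.

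No gene passed among the 12 tested factors of immunoglobulin mRNA processing, where 3 had an unadjusted p under 0.05 (22.5% over all tested genes) and DESeq2 called 1, lower in the knockdown. ELL2, an elongation factor that favours the secreted heavy chain form, had 113 and 101 CPM in the knockdown and 136 and 136 CPM in the control (log2 fold change −0.35, adjusted p 0.0665). None of 18 tested genes of degradation from the endoplasmic reticulum (ER) passed, with 6 at an unadjusted p under 0.05, and none of 13 in recombination and class switching, with 0. DESeq2 and limma-voom also called 0 in both lists.

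In the ER, 1 of 30 tested folding and assembly genes fell and none rose. ERO1B, an oxidase that drives disulfide formation, had 13.4 and 13.3 CPM in the knockdown, against 28.1 and 27.6 CPM in the control (log2 fold change −1.06, adjusted p 0.000836). The chaperone gene HSPA5, which binds unassembled heavy chains, had 1134 and 1212 CPM in the knockdown and 1105 and 1145 CPM in the control, with overlap (0.06, adjusted p 0.765). Of 25 tested genes for entry into the ER, signal peptide removal and glycan transfer, only SPCS3, a signal peptidase subunit, fell. It had 235 and 227 CPM in the knockdown, against 332 and 313 CPM in the control (−0.48, adjusted p 0.0159), and it did not pass without knockdown replicate 2 (0.0618).

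Of 6 tested partners of the B cell receptor, 1 rose and none fell. CD79B, a signalling chain that pairs with CD79A at the membrane, had 56.1 and 63.7 CPM in the knockdown, against 39.4 and 42.2 CPM in the control (log2 fold change 0.55, adjusted p 0.0127); without knockdown replicate 2 the adjusted p was 0.0652. CD79A itself had 0.972 and 0.902 CPM in the knockdown and 1.62 and 1.10 CPM in the control (−0.54, adjusted p 0.275). None of 10 tested Fc receptor and transport genes passed, with 2 at an unadjusted p under 0.05 (22.5% over all tested genes) and 0 called by DESeq2 or limma-voom.

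Some markers of plasma cells and of other cells moved with the groups. The 6 packaging or epithelial markers, of which 3 of 4 tested fell, summed to 43.0 and 35.3 CPM in the knockdown and 83.8 and 58.9 CPM in the control. Of 10 plasma cell markers 2 fell, SLAMF7 and CD38, and of 4 tested mature B cell markers CIITA fell. Over all tested genes 4.19% fell past the threshold. The 5 T cell markers in the table summed to 2.67 and 2.73 CPM in the knockdown and 4.45 and 3.81 CPM in the control, with CD3D at 0, and the 6 myeloid markers to at most 0.170 CPM in any library, with S100A8 at 0. The part of these markers in the immunoglobulin values was not tested. Mitochondrial genes took 5.82% and 6.81% of fragments in the knockdown and 5.89% and 5.86% in the control.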

How the data were processed

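RNA of 2 NSD2 knockdown and 2 control libraries of KMS11 cells was analysed from the deposited tables. Per the submitters' processing notes, the tools were Trim Galore 0.3.7, STAR 2.5.3, Picard, featureCounts of Subread 1.4.6 and DESeq2, with GRCh37. The deposited count of each library is raw fragments per Ensembl gene, not normalized; per the file headers, featureCounts counted paired fragments without regard to strand from alignments named as free of duplicates, and the command lists neither multi-mapped nor multi-gene counting. The deposited files also give exonic lengths per gene. The authors' deposited table holds a signal (mean of normalized counts), a log2 fold change, a score (Wald statistic) and a p-value per gene, per the file headers for M2 against LUC; its DESeq2 version and libraries are not given in the sources used here. A row with no gene ID was left out of each file, and 4 per-sample columns of that table were not used.

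Counts were tested with edgeR 4.0.16 (TMM scaling, filterByExpr, glmQLFit, glmQLFTest, group as the only term) in R 4.3.3 over all 17172 genes passing the filter, with Benjamini-Hochberg adjustment and a threshold of 0.05. Alternatives were scaling by RLE, by the upper quartile or by library size, testing every gene or those over 1 CPM, DESeq2 1.42.0, limma-voom (limma 3.58.1), a replicate block, and leaving out each library. Class sums and shares were compared by two-sided exact permutation tests. On simulated counts of this comparison (16858 genes tested, 200 changed), 55.8% of genes changed 1.5-fold, 79.5% of those changed 2-fold and 97.3% of those changed 4-fold were called, with 23 false calls among 181. Binomial intervals cover counting error only. Intervals of log2 fold changes come from the edgeR fit and include the spread between libraries. Germline sequences came from GENCODE 29 and were aligned with Biopython 1.88; those of some V genes are not reported here.

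The members, the gene lists and the rule for named genes were chosen with earlier results of these data known. The rule names NSD2, JCHAIN and every constant gene member, the 3 members with most fragments in each V and D class, every member past the threshold, up to 3 genes per related list in each direction, and the genes next to the minimum of 10 fragments; genes named beyond it were chosen after their values were seen.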

Additional observations from a re-analysis of the deposited data

How the results depend on the processing

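Across the alternatives, 302 of 336 comparisons of a named gene kept both direction and side of the threshold. The count of members that rose was 1 in the fit as reported, 2 with no filter and 1 to 2 when a library was left out. The count of members that fell was 1, and became 0 with library-size scaling, 0 with a filter of 1 CPM, 0 with limma-voom, 6 with no filter, 8 with the replicate block, and 1 to 6 when a library was left out. Among the related lists, 1 gene rose, against 3 with no filter, 2 with DESeq2, 13 with the replicate block and 0 to 6 without a library; 3 fell, against 9, 5, 11 and 4 to 13. The replicate numbers are only numbers in the labels; same-numbered libraries deviated together with a correlation of 0.24 over tested genes, and with 2 pairs they were not taken as pairs.

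Leaving out a library turned the direction of some values that were near 0 or rest on few fragments. The log2 ratio of the summed heavy constant genes then ranged from −0.31 to 0.25, of lambda constant genes from −0.64 to 0.36 and of lambda V genes from −0.73 to 0.0093. The difference in share ranged from −2.49 to 2.92 points for IGLV6-57, from −20.3 to 3.94 points for kappa among light chain constant fragments, from −0.019 to 0.015 points for kappa among light chain V fragments and from −0.67 to 0.90 points for IGKJ5. Log2 fold changes that changed sign when a library was left out ranged from −0.14 to 0.0025 for JCHAIN, from −0.61 to 0.20 for IGHA1, from −0.54 to 0.47 for IGHG4, from −0.90 to 0.18 for IGLV6-57 and from −0.60 to 0.42 for IGLV1-51. With limma-voom that of IGHG4 was −0.050. The cause was not tested. Scaling moved the median of all tested genes by at most 0.0185 on the log2 scale. With 2 libraries a group, exact tests cannot go below 0.333. Members with few fragments were left out of the fit as reported. The fit with no filter tested every member, so its counts include sparse ones.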

Other observations

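The authors' deposited table gives means of normalized counts of 11011 for IGHA2, 9476 for IGHA1, 14070 for IGHG3 and 5683 for IGHM, whereas IGHA2 had 424 and 361 fragments in the knockdown libraries and 583 and 381 in the control libraries, and IGHA1 had 215 and 223 in the knockdown and 328 and 176 in the control. IGHG3 had 4 and 6 fragments in the knockdown and 3 and 1 in the control, and IGHM had 1 and 2 in the knockdown and 7 and 5 in the control. For IGKV3-15 the same table gives a mean of 131161, against 190076 and 197794 fragments in the knockdown libraries and 277859 and 210615 in the control libraries. The libraries behind those means are not stated in the table, so its values for immunoglobulin genes are set apart from the fits on the 4 libraries.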
